A study of Mus musculus with 55 samples.

Results

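The genes of the proteasome were read out in RNA sequencing libraries of mouse oocytes. They were taken by name: of 33924 genes in the deposited table, 49 have a symbol that starts with Psma, Psmb, Psmc, Psmd, Psme, Psmf or Psmg and goes on with a digit, after 4 pseudogene names holding -ps were left out. The spelling also takes in Psmc3ip, which encodes a meiotic recombination factor and no proteasome protein. It is given apart, and the counts are over the other 48 genes. By role these are 8 alpha ring genes (Psma1 to Psma8), 7 standard beta ring genes (Psmb1 to Psmb7), 4 inducible or tissue-specific beta genes (Psmb8 to Psmb11), 6 ATPases of the 19S particle (Psmc1 to Psmc6), 11 other 19S subunits (Psmd genes), 5 genes of caps and their inhibitor (Psme1 to Psme4, Psmf1) and 7 assembly factors (Psmg1 to Psmg4, Psmd5, Psmd9, Psmd10). The genes lie on 16 chromosomes, and 3 pairs are close neighbours (Psmb5 and Psmb11, Psmb8 and Psmb9, Psme1 and Psme2).

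The proteasome is the protease that degrades ubiquitin-tagged proteins. Its 20S core is a barrel of stacked rings, alpha rings outside as the gate and beta rings inside, where Psmb5, Psmb6 and Psmb7 encode the catalytic subunits. The 19S particle sits on the barrel, binds and deubiquitinates the substrate and threads it into the core with its ATPase ring. Psmb8, Psmb9 and Psmb10 encode catalytic subunits that replace the standard ones in the immunoproteasome, Psmb11 that of the thymus, and Psma8 is an alpha subunit of spermatocytes. In oocytes, meiotic divisions depend on the proteasome, which degrades cyclin B and securin after the anaphase promoting complex has tagged them.

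The libraries used came from 4 experiments. Growing oocytes gave 3 libraries labelled control and 3 labelled Dhx36_sko. The extraction note, which is the same for all samples, names control and Dhx36fl/fl;SKO mice as the source of growing oocytes; what SKO stands for, the Cre driver and the ages are not given there. The DHX36 helicase (RHAU) resolves G-quadruplexes, which are folds of guanine-rich RNA or DNA. The second experiment held the groups c (2 libraries used), c with DRB (1), rhau-sko (1) and rhau-sko with DRB (2). DRB blocks transcription elongation through the kinase CDK9. Oocytes labelled GV, for the germinal vesicle stage, gave 3 libraries named GV-C and 3 named GV-cPDS-12h, where cPDS (carboxypyridostatin) binds and stabilises RNA G-quadruplexes and the label gives 12 h. The GV-C labels give no time. The last experiment held 3 libraries labelled Dhx36-3h-control and 3 labelled Dhx36-3h-Trim21. TRIM21 ubiquitinates proteins bound by an antibody, which the proteasome then removes, and Trim-Away puts this to use against a chosen protein. The labels give no dose or strain, and nothing in the labels says whether replicates came from separate animals, so p-values measure the spread between these libraries.

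Total counts ran from 7452742 to 65444652 in the 24 libraries used. The other 2, a c library with DRB and a rhau-sko library, held 129192 and 127927 counts and were left out. Dhx36 was at 7.34 to 10.9 CPM (counts scaled to the normalised library size) in growing controls against 1.73 to 2.83 in sko, and at 38.2 to 47.3 in the c libraries with or without DRB against 4.42 to 7.70 in the rhau-sko libraries. In the Trim21 libraries Trim21 itself was at 7620 to 9310 CPM, against 14.6 to 14.8 in their controls, and Dhx36 was at 6.23 to 8.77 against 29.6 to 32.0. These are RNA levels. Trim-Away acts on protein, which was not measured here, and why Dhx36 RNA was lower was not tested. In the GV groups Dhx36 was at 20.6 to 23.0 CPM in GV-C and 31.3 to 38.3 with cPDS. The 11 oocyte markers summed to at least 8747 CPM in every group and were all detected, and the 12 granulosa and cumulus markers to at most 151.4 CPM. In bulk libraries, fewer cells of a type and less RNA per cell cannot be told apart.

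Levels differed widely between subunits of the same complex. The 46 genes present in every table summed to 8429 ± 348 CPM (SD, n = 3) in growing controls and to 10500 ± 227 in GV-C (SD, n = 3). CPM here are normalised within each experiment, so levels between experiments are a description. Whether experiments were processed together is not given in the labels. The titles of the second experiment and of the GV libraries share a prefix, whose meaning is not given either. Per kilobase of exon, which allows genes to be compared, Psmb1 was highest of the 31 core and 19S genes in GV-C at 500.3 ± 30.5 CPM per kilobase (SD, n = 3), followed by Psmb2 at 443 ± 28.2. Both encode beta subunits with no protease activity. Psmd13, a 19S lid subunit, was lowest at 1.69 ± 0.247, and Psmd3, also of the lid, was next at 4.90 ± 0.408. The median of the 31 genes was 129 CPM per kilobase, and the highest stood 296-fold above the lowest. Of the catalytic subunits in GV-C, Psmb7 was at 346 ± 20.3, Psmb6 at 265 ± 6.70 and Psmb5 at 52.3 ± 4.46 CPM per kilobase.

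Most subunits of specialised proteasomes had low levels in every group, on the CPM scale. Psmb8 was at most 1.30 CPM in any library, Psmb10 at most 1.97, Psme1 at most 1.32 and Psma8 at most 0.822. Psmb9 had no counts in the growing controls, in c, in c with DRB or in GV-cPDS-12h. A count of 3 over the group, the limit that 0 counts allow, equals 0.0306, 0.0385, 0.0881 and 0.0234 CPM in these groups, for counting error only. Psmb11 stood between 1.69 and 6.19 CPM and passed the low-count filter in every comparison. Psme2, whose protein joins that of Psme1 in the PA28 cap, was at 2.86 to 5.37 CPM in the growing groups and at 18.2 to 45.8 in the others. Psma7, whose paralog is Psma8, was far higher, at 589 CPM or more in each library. Not every standard subunit was: in growing controls Psmb5 was at 2.96 to 4.84 CPM, where Psmb11 was at 1.97 to 2.30.

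**Figure D1:**
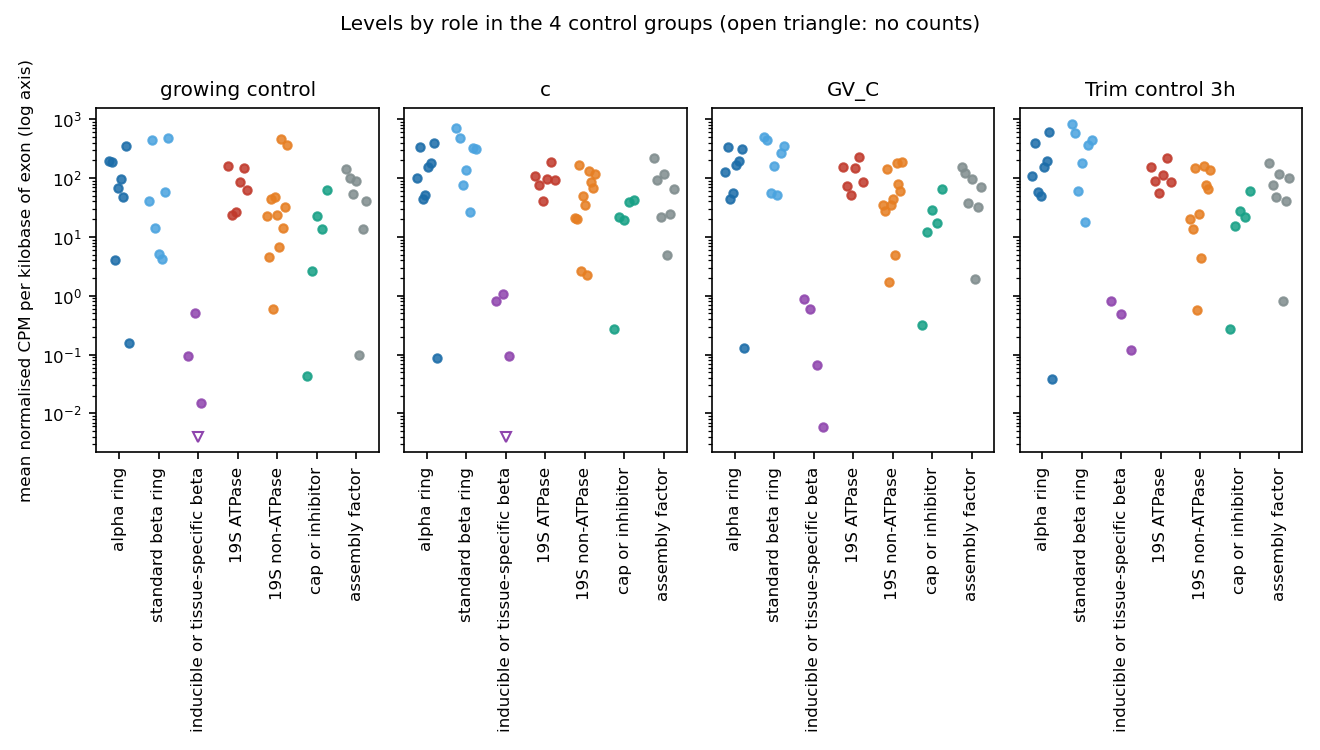
Mean normalised CPM per kilobase of exon (log axis) of each proteasome gene in the 4 control groups, by role, 1 point per gene. Inducible or tissue-specific beta genes lie near or below 1 CPM per kilobase in each panel, Psmb9 has no counts in the growing control and c groups (open triangles), and standard subunits in GV_C run from 1.69 (Psmd13) to 500.3 (Psmb1).

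Some core subunits had other levels in growing controls than in the remaining controls. Psmb1 was at 40.0 to 44.6 CPM there against 704 to 769 in c, and Psmb4 at 5.73 to 7.73 against 181 to 197. Psma3 was at 13.2 to 17.9 CPM against 167 to 180.3. Psmb4 and Psma3 encode a beta and an alpha subunit of the ring, where each has a fixed place. These values come from separate experiments, and how reads with several matches were counted in them is not given, so stage, library and counting cannot be told apart.

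The comparison in growing oocytes addresses the loss of Dhx36. ATPases of the 19S ring and the inhibitor Psmf1 were lower in sko, and a few 19S subunits were higher. Of 43 genes that passed the low-count filter, 5 were higher and 19 lower (edgeR quasi-likelihood test, Benjamini-Hochberg adjusted p under 0.05), where over all genes tested 28.5% were higher, 25.2% lower and 53.7% called. The median log2 fold change was -0.27, against 0.02 over all genes. Without TMM scaling, with library size alone, the split was 7 higher and 15 lower, the median of all genes 0.21 and that of the members -0.09, still below it. The 5 genes not tested were Psma8, Psmb8, Psmb9, Psmb10 and Psme1. Psmg2, counted as higher, passed the filter only because of its sko libraries, so its call gives no support of its own. In the growing groups, 6 of the tested genes had every sko library above every control and 20 had every sko library below, against 32.2% and 28.6% of all genes tested.

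Psmf1 encodes PI31, a proteasome-binding protein first described as an inhibitor. It lies at chr2:151541548-151569922 (mm9, minus strand). Its controls were at 504, 389 and 339 CPM and its sko libraries at 139, 136 and 128. All sko libraries were below all controls, with a log2 fold change of -1.61 (SE 0.14, adjusted p = 1.88e-07). The SE here was worked out from the log2 fold change and the F statistic. Psme3 (REG gamma), an activator of ubiquitin-independent degradation in the nucleus, fell too (-0.54, SE 0.15, adjusted p = 0.00765), a call lost with library size alone (-0.36, adjusted p = 0.101), while Psme4 (PA200), the activator linked to histone degradation, was at -0.27 (SE 0.14, adjusted p = 0.134).

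Of the ATPases that unfold substrates, 5 of 6 fell. Psmc4 was at 184, 198 and 183 CPM in controls and at 79.2, 81.0 and 74.6 in sko (log2 fold change -1.27, SE 0.12, adjusted p = 2.45e-07). Psmc1 was at 272, 244 and 225 against 126, 113 and 111 (-1.08, SE 0.12, adjusted p = 2.41e-06). Psmc5 was at 225, 188 and 202 against 99.2, 107 and 102 (SE 0.12 on the log2 scale, adjusted p = 4.26e-06). In these 3 genes the groups were apart by more than the spread within either. Psmc3 fell by 0.76 and Psmc2 by 0.51 on the log2 scale. Psmc6 was the exception, with 156, 126 and 121 CPM in controls and 129, 154 and 153 in sko, which overlap.

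Among the other 19S subunits, 6 of 11 fell and 3 rose. Psmd3 was at 27.3, 38.6 and 33.8 CPM against 18.0, 15.9 and 17.0 (-0.97, SE 0.15, adjusted p = 4.73e-05), and Psmd4, the ubiquitin receptor, at 1361, 1315 and 1187 against 797, 814 and 913. Those that rose were Psmd13, Psmd7 and Psmd14. Psmd13 was at 2.44, 1.80 and 1.86 CPM in controls and 8.54, 7.94 and 7.65 in sko (1.98, SE 0.21, adjusted p = 1.43e-06), and 4.48% of its exon bases are shared with Sirt3 on the other strand. Psmd14 encodes the metalloprotease that removes ubiquitin chains and Psmd7 its partner. Psmd14 was at 153, 126 and 119 CPM against 209, 219 and 219 (0.70, SE 0.12, adjusted p = 2.09e-04), and Psmd7 at 50.3, 52.1 and 53.2 against 81.6, 89.9 and 90.4 (0.75, SE 0.12). All sko libraries lay above all controls in these 3 genes.

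In the alpha ring 3 of 7 tested genes fell and none rose, with Psma7 at 1131, 999 and 1094 CPM against 589, 731 and 653 (-0.71, SE 0.12). In the standard beta ring 2 of 7 fell, Psmb6 (-0.62, SE 0.12) and Psmb7 (-0.55, SE 0.11), and Psmb5 rose from 3.68, 2.96 and 4.84 CPM to 5.23, 7.57 and 7.10 (0.79, SE 0.23, adjusted p = 0.00825). Of the 3 catalytic genes the least expressed one, Psmb5, was up and the others down. Mir686 on the same strand shares 11.8% of the Psmb5 exon bases. Of 7 assembly factors, Psmg1 fell (-0.35, SE 0.12), a call lost without control replicate 2 or sko replicate 6. Psmg2, its partner in the chaperone of alpha ring assembly, was called higher from 0, 2 and 10 counts in controls against 38, 24 and 31 in sko. Its log2 fold change of 2.68 became 4.57 without the third control and 2.05 without the first. Psmc3ip fell by 0.43 (SE 0.17, adjusted p = 0.0459), a call lost without control replicate 3 (-0.21, adjusted p = 0.268) or sko replicates 4 or 5.

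The summed level of the 46 genes was 8174 to 8825 CPM in growing controls and 5765 to 6341 in sko, with no overlap. Some markers of other cells moved with the same groups. The 12 granulosa and cumulus markers summed to 24.7 to 29.7 CPM in controls and 79.8 to 84.3 in sko, with none at 0 in every library of a group. Of 7 tested, Fshr, Cyp19a1, Kitl and Nr5a2 were higher. Fshr made up the largest part of the sum in sko (0.283 to 0.443 CPM against 35.1 to 38.2), while Inha was at 1.27 to 1.67 against 0.614 to 1.21. The 9 immune markers summed to 4.50 to 6.73 against 19.8 to 20.9, with Emr1 and Tyrobp at 0 in both. H2-Aa made up most of it in sko (2.61 to 3.68 CPM against 15.6 to 16.9), Ptprc rose from 0 and Cd68 fell (-1.29). Of 3 tested theca and stroma markers, Cyp17a1 and Dcn rose. The oocyte markers went from 36400 to 41460 CPM in controls to 30110 to 35300 in sko, where 5 of 11 fell and 1 rose. The part of these in the result was not tested.

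**Figure D2:**
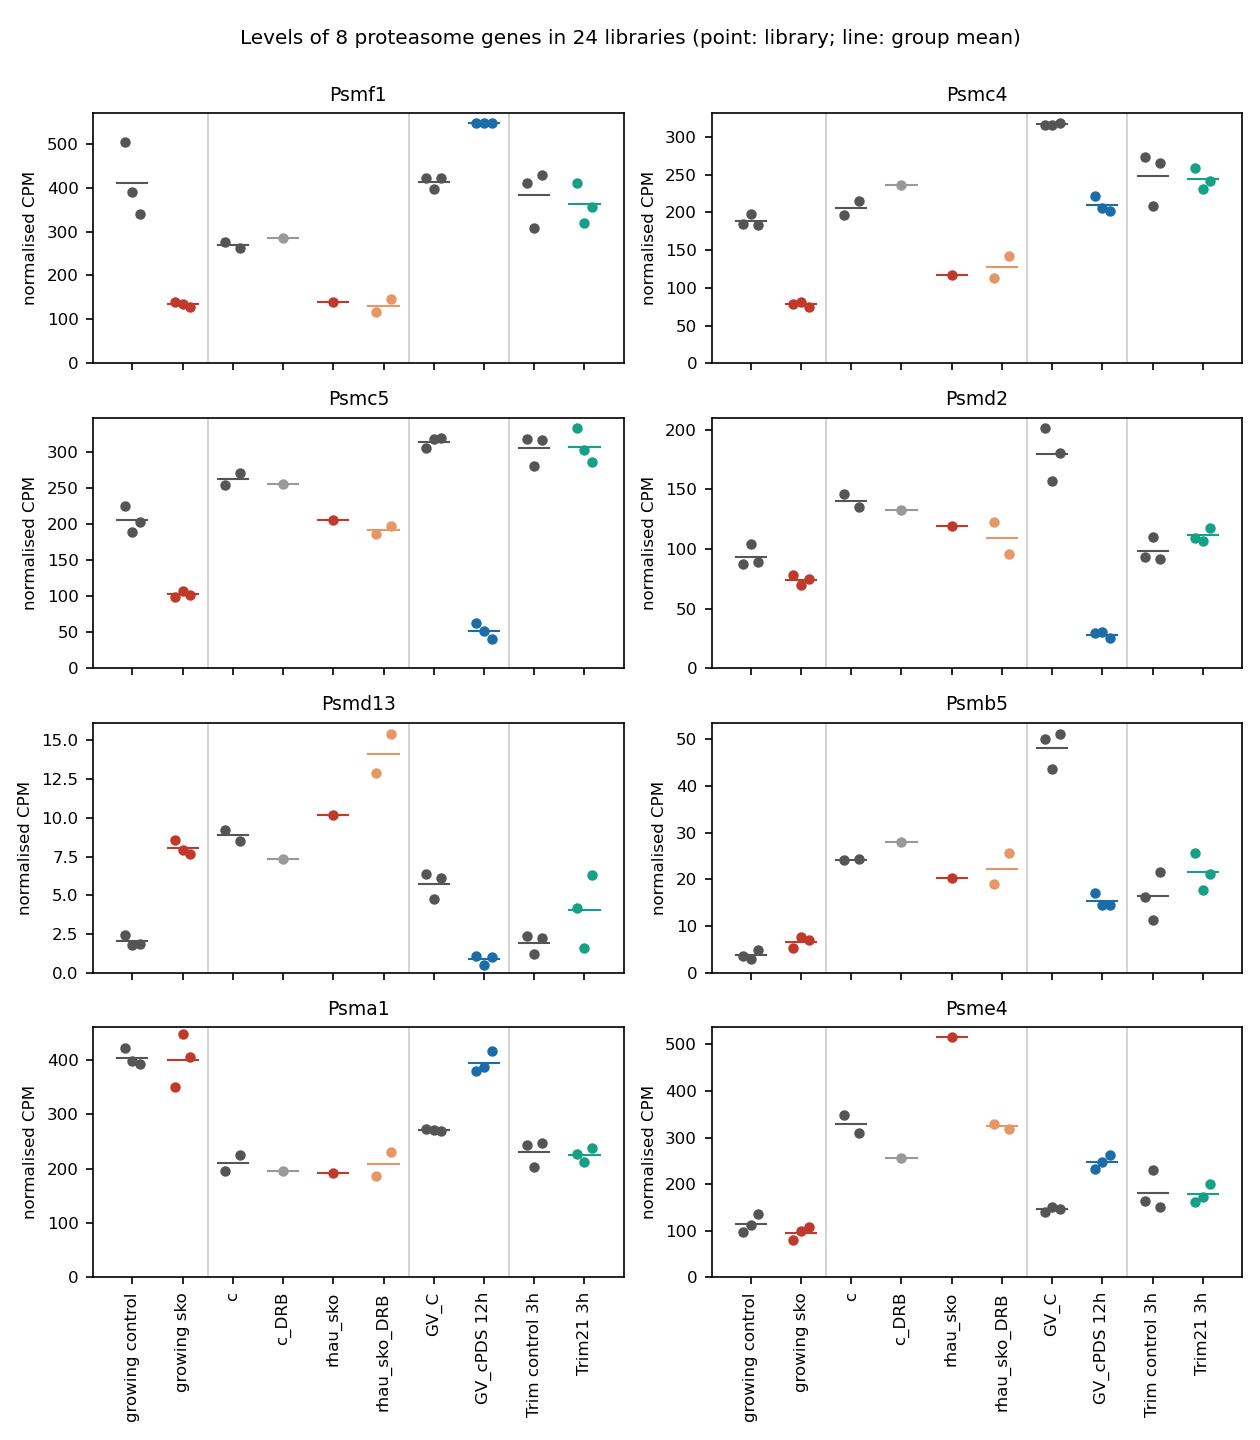
Normalised CPM of 8 proteasome genes in each of 24 libraries (points) with the group mean (lines), scaled within each of the 4 experiments, which grey lines part. Psmf1, Psmc4 and Psmc5 are lower in both sko groups than in their controls, Psmc5, Psmd2, Psmd13 and Psmb5 are lowest of the GV pair under cPDS, and Psma1 and Psme4 are higher there.

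Genes that work with the proteasome moved in both directions in growing sko oocytes. Of 25 tested partners 5 rose and 10 fell, where 28.5% of all genes tested were higher and 25.2% lower. The assembly chaperone Pomp (-0.77, SE 0.13) and the ubiquilin Ubqln2 (-1.93), a shuttle for ubiquitinated proteins, fell with the smallest p, and Nfe2l2 (0.74, SE 0.15), a transcription factor of the oxidative stress response, and Usp14 (0.50, SE 0.13), a proteasome-bound deubiquitinase, rose. Nfe2l1, the factor that drives proteasome genes when proteasome activity is short, was at -0.13 (SE 0.15, adjusted p = 0.485). Among the ubiquitin and activating enzyme genes Uba6 rose (1.23), and Ubb (-0.77) and Uba1 (-0.85) fell. Of 19 anaphase promoting complex genes 2 rose and 9 fell, led by the activator Cdc20 (-1.43) and the inhibitor Fbxo43 (-1.16). Of 5 tested antigen presentation genes 2 rose and 2 fell.

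The second experiment put the same loss to the test in other libraries, 3 with sko and 3 without, with DRB as a term in the fit. Psmf1, Psmc4 and Psmc1 were again lower, and Psmd14 and Psmd7 higher. Of 47 tested genes 6 were higher and 12 lower, where 19.9% and 17.9% of all genes were (37.8% called). The members' share of lower calls, 25.5%, stands beside a median log2 fold change of -0.13, against -0.01 over all genes. Only Psmb9 was not tested. Psmb8, counted as higher, passed the filter only because of its sko libraries, so its call gives no support of its own. Every sko library was above every c library in 7 of the 47 and below in 13, against 24.7% and 24.4% of all genes tested. The count fell to 9 without the c library with DRB (replicate 3) and to 11 without the rhau-sko library without DRB (replicate 5), so it rests in part on single libraries.

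Psmf1 was at 275, 263 and 286 CPM in the 3 libraries without sko (the last with DRB) and at 140, 117 and 146 in those with sko (the last 2 with DRB), a log2 fold change of -1.03 (SE 0.12, adjusted p = 8.7e-05). Psmc4 was at 197, 214 and 236 against 117, 113 and 143 (-0.85, SE 0.12, adjusted p = 3.49e-04), and Psmc1 at 164, 160.2 and 189 against 105, 119 and 111 (-0.67, SE 0.10, adjusted p = 5.82e-04). The groups were apart in all 3. Psmb4 (-0.63, SE 0.10), Psmd6 (-0.57, SE 0.11) and the assembly chaperone Psmg1 (-0.59, SE 0.11) fell with the next smallest p. Of the ATPases 3 of 6 fell, the third being Psmc5 (-0.39, SE 0.10), a call lost without the c library with DRB.

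Psmd14 was at 137, 148 and 115 CPM without sko and 181, 177 and 194 with it (0.51, SE 0.12, adjusted p = 0.00656), and Psmd7 at 115, 104 and 104 against 131, 143 and 137 (0.34, SE 0.11, adjusted p = 0.0302). The call of Psmd7 was lost when any of the libraries but rhau-sko replicate 8 was left out, and that of Psmd14 without the c library with DRB. Psmg2 rose from 7.07, 5.88 and 4.29 to 9.10, 11.8 and 9.29 CPM (0.89, SE 0.26, adjusted p = 0.0222), and this call too was lost without that library. Psme4 was at 349, 309 and 256 against 515, 329 and 319, which overlap (0.49, SE 0.11, adjusted p = 0.00486), and the call was lost without the first of the sko libraries (0.34, adjusted p = 0.102). The gankyrin gene Psmd10, a chaperone of the 19S base, rose by 0.30 (SE 0.10), a call lost without c replicate 1 or 2, the c library with DRB or rhau-sko replicate 5.

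Of the catalytic subunits, Psmb6 fell (-0.28, SE 0.10, adjusted p = 0.042), a call lost without c replicate 1 or 2, c with DRB or rhau-sko replicate 5, while Psmb7 was at -0.06 (SE 0.10) and Psmb5 at -0.29 (SE 0.16, adjusted p = 0.186). Psma7 (-0.38, SE 0.10) fell, though its libraries overlap, and the call was lost without rhau-sko replicate 5. Psmb8, the immunoproteasome subunit, was called higher from 0.321, 0.197 and 0.0587 CPM to 1.05, 1.30 and 0.588 (2.73, SE 0.80, adjusted p = 0.0201), that is from 12, 8 and 2 counts to 33, 30 and 16. Its log2 fold change ran to 3.91 (adjusted p = 0.0575) without rhau-sko replicate 5 and to 2.00 (adjusted p = 0.139) without the c library with DRB, and the call was also lost without c replicate 2 or rhau-sko replicate 7. Psmb11 fell by 0.83 (SE 0.27), Psmg3 by 0.44 (SE 0.15) and Psmc3ip by 0.51 (SE 0.11). Without rhau-sko replicate 5 none of these 3 was called, and Psmb11 and Psmg3 were also lost without c replicate 1 or the c library with DRB, and Psmg3 without c replicate 2 or rhau-sko replicate 7. Psmb10 (0.13, SE 0.47), Psme2 (-0.11, SE 0.18) and Psme3 (0.15, SE 0.14) did not pass the test.

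The granulosa and cumulus markers summed to 65.9 to 83.5 CPM in the c libraries with or without DRB and to 111.8 to 151.4 in the rhau-sko libraries, with Amh at 0 in all of them, and 3 of 7 tested were higher (Fshr, Cyp19a1 and Nr5a2). The immune markers summed to 7.29 to 8.84 against 8.06 to 16.99, and of 5 tested Ptprc (0.0246 to 0.0587 against 1.07 to 5.82 CPM) and H2-Aa rose and Cd68 fell. The theca and stroma markers summed to 3.49 to 5.24 against 6.32 to 10.34, and Dcn rose of 4 tested. The 6 endothelial and blood markers summed to 57.3 to 62.5 against 35.1 to 47.2, and 2 of 3 tested fell. Pecam1 was at 39.0 to 46.2 CPM against 20.8 to 26.5, and Tek at 15.7 to 17.7 against 14.3 to 25.5. The oocyte markers summed to 13740 to 15300 against 8747 to 10480, and 8 of 11 fell. Mitochondrial transcripts made up 0.126% to 0.170% of counts without sko and 0.302% to 0.633% with it. The part of these in the result was not tested.

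The experiments share no library, so the sko change can be set side by side. Of 43 genes tested in both, 9 were lower in both (Psma7, Psmb6, Psmc1, Psmc4, Psmc5, Psmd6, Psmd8, Psmf1 and Psmg1), which is 47.4% of those lower in growing oocytes and 75% of those lower in the second experiment. Over all genes these shares were 51.2% and 66.4%. Higher in both were Psmd7, Psmd14 and Psmg2, 60% of either list, against 50.7% and 69.7% over all genes. Psmg2 entered the growing test only because of its sko libraries. None of the 43 was called in opposite directions, against 191 of 13684 genes. The change itself differed between experiments for 8 of 47 genes, 5 with a higher value in the second and 3 with a lower one (13.2% of all genes, with 5.25% higher and 7.93% lower). For Psmd13, at 9.21, 8.51 and 7.34 CPM without sko and 10.2, 12.9 and 15.4 with it in the second experiment (0.57, adjusted p = 0.0801), the difference from the growing change was -1.43 (SE 0.32, adjusted p = 0.00565). No member remained called in this test without rhau-sko replicate 5, and the calls of 8 became 0 higher and 4 lower with library size alone, 8 higher and 2 lower with RLE factors and 14 higher and 4 lower with DESeq2.

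**Figure D3:**
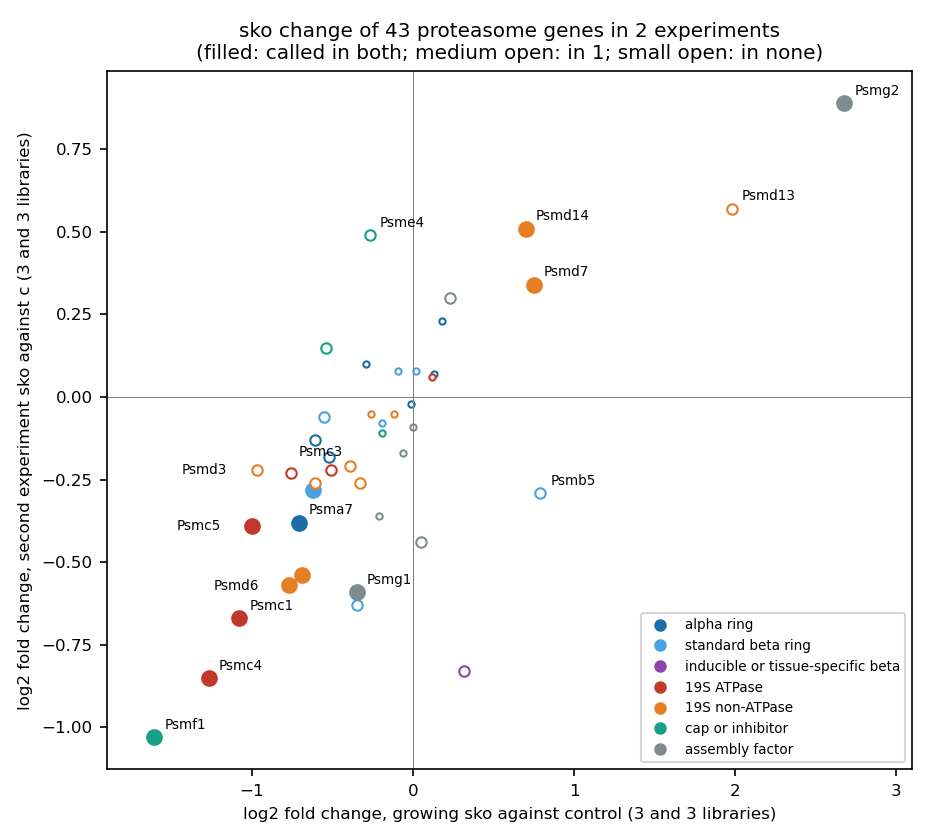
Log2 fold change of 43 proteasome genes between sko and control libraries in growing oocytes (horizontal) and in the second experiment (vertical), coloured by role; filled points were called in both. Psmf1, Psmc4 and Psmc1 lie at the lower left and Psmg2 at 2.68 and 0.89 at the upper right. The sign is the same on both axes for 35 of the 43 genes. Psmb5 and Psme4 are among those that change sign, and each was called in only 1 experiment.

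In the second experiment 6 partners rose and 6 fell of 25, where 19.9% of all genes tested were higher and 17.9% lower. The shuttle gene Rad23b was at 40.7, 45.5 and 51.8 CPM without sko and at 164, 185 and 162 with it (1.84, adjusted p = 2.52e-06), and Ubqln1 rose by 1.08 on the log2 scale. In growing sko oocytes Ubqln1 had fallen (-0.60, SE 0.13, adjusted p = 0.00109), and the difference between the changes was 1.66 (SE 0.17, adjusted p = 4.85e-06). Adrm1, the ubiquitin receptor of the 19S base, was lower (-0.63, SE 0.12), as in the growing oocytes (-0.47, SE 0.13), and so was Ubqln2 (-1.15). Of the ubiquitin genes Uba6 rose (0.86). Of 19 anaphase promoting complex genes 2 rose and 3 fell, with Cdc20 at 138, 132 and 144 CPM against 57.3, 54.5 and 58.2 (-1.29). Of 8 tested antigen presentation genes 1 rose and 2 fell.

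With DRB, in the same 6 libraries and with genotype as a term, no proteasome gene passed the threshold. The count was 0 of 47, where 2 of 15923 genes (0.0126%) were called, 1 in each direction (0.00628% each). At an unadjusted p under 0.05 there were 7 genes, DESeq2 called 4 (3 higher, 1 lower), and without the low-count filter edgeR called 2 (1 higher, 1 lower). The smallest p was that of Psme4, with -0.52 (SE 0.11, adjusted p = 0.142), followed by the assembly factor Psmg4 with 0.57 (SE 0.13, adjusted p = 0.142). Psme4 was called by edgeR without the filter (-0.51, adjusted p = 0.00152) and by DESeq2 (-0.52, adjusted p = 0.00198). Psma7 was at 0.32 (SE 0.10, adjusted p = 0.21) and was called by DESeq2 (adjusted p = 0.0393). Psmb6 was at 0.28 (SE 0.10) and Psmf1 at 0.00 (SE 0.12). The median of the 47 was 0.12, against 0.00 over all genes. Groups did not overlap for 6 genes on the higher and 2 on the lower side, against 5.36% and 5.04% of all genes tested. The sko and DRB comparisons share their libraries, and 3 residual degrees of freedom limit both.

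The GV libraries set oocytes with a G-quadruplex ligand at 12 h against GV-C, whose labels give no time. If GV-C was not held for 12 h, ligand and time cannot be told apart. With cPDS at 12 h, 7 of 8 alpha ring genes were higher, the 3 catalytic genes of the beta ring were lower, and 12 of 17 genes of the 19S particle were lower. Of 47 tested genes 16 were higher and 19 lower, where 23.4% of all genes were higher and 27.4% lower (50.8% called). Among the 14 standard core genes 9 rose and 3 fell, with a median log2 fold change of 0.24. Among the 17 genes of the 19S particle 4 rose and 12 fell, with a median of -0.59. The median of all 47 was -0.17, against 0.01 over all genes, and 8 were called with a change of 2-fold or more, against 14.3% of all genes. Every cPDS library was above every GV-C library in 16 genes and below in 21, against 27.4% and 30.7% of all genes tested. The summed level of the 46 genes was nearly level, 10274 to 10728 CPM in GV-C and 10119 to 10413 with cPDS. CPM are relative to the other transcripts of a library. A rise in the amount of an RNA and a loss of other RNA thus cannot be told apart.

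In the alpha ring 7 of 8 genes rose, by 0.20 to 0.54 on the log2 scale, and Psma8, under 0.5 CPM, was at 0.06 (SE 0.68). Psma1 was at 272, 271 and 268 CPM in GV-C and 379, 387 and 417 with cPDS (0.54, SE 0.06, adjusted p = 2.85e-06). Psma3 was at 160, 185 and 169 against 221, 244 and 243 (0.46, SE 0.07), and Psma4 at 131, 137 and 129 against 182, 174 and 184 (0.44, SE 0.07). The smallest change was that of Psma7 (0.20, SE 0.06, adjusted p = 0.0151), a call lost without GV-C replicate 1 or 3. In the beta ring Psmb2 rose from 505, 571 and 523 to 763, 765 and 798 CPM (0.54, SE 0.06, adjusted p = 3.29e-06) and Psmb1 by 0.28, while the 3 catalytic genes fell. Psmb5 was at 49.99, 43.5 and 51.1 CPM against 17.0, 14.6 and 14.6 (-1.65, SE 0.10, adjusted p = 2.46e-09), with 11.8% of its exon bases shared with Mir686 on the same strand. Psmb6 (-0.41, SE 0.06) and Psmb7 (-0.41, SE 0.07) fell less. Psmb3 (-0.08, SE 0.07) and Psmb4 (0.04, SE 0.06), which have no catalytic site, were not called.

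The 19S subunits held the largest decreases. Of the 11 that are not ATPases 8 fell and 3 rose. Psmd2, the scaffold subunit of the 19S base at chr16:20651725-20663487 (mm9, plus strand), was at 201, 157 and 181 CPM in GV-C and at 29.2, 30.0 and 25.3 with cPDS (-2.68, SE 0.10, adjusted p = 1.37e-11). Psmd1, the other large scaffold, was at 182, 166 and 167 against 78.3, 66.6 and 62.7 (-1.31, SE 0.09, adjusted p = 5.47e-09), with 13.1% of its exon bases shared with Armc9 or Htr2b. The cPDS libraries of both lay below all of GV-C by far more than their spread.

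Lid subunits followed. Psmd3 was at 25.04, 22.1 and 25.95 CPM against 5.23, 4.51 and 4.15 (-2.40, SE 0.12, adjusted p = 3.86e-10). Psmd7 was at 92.0, 94.4 and 98.2 against 30.5, 24.4 and 22.9 (-1.87, SE 0.10, adjusted p = 5.46e-10). Psmd13 was at 6.35, 4.78 and 6.08 against 1.10, 0.535 and 1.01 (-2.65, SE 0.23, adjusted p = 1.47e-07). Psmd13 and Psmd7 had been higher in growing sko oocytes and were lower here. Psmd4 fell by 0.97 (SE 0.07), Psmd12 by 0.56 and Psmd11 by 0.43. The 3 that rose were Psmd8 (0.29, SE 0.06), Psmd14 (0.27, SE 0.07, adjusted p = 0.00496) and Psmd6 (0.20, SE 0.06), the call of the last being lost without GV-C replicate 1 or 3 or cPDS replicate 2.

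Of the ATPases 4 fell and 1 rose. Psmc5 was at 304, 318 and 319 CPM against 63.1, 51.5 and 40.8 (-2.60, SE 0.12, adjusted p = 9.76e-11), Psmc3 at 125, 139.7 and 135 against 79.2, 74.7 and 56.4 (-0.93, SE 0.11), and Psmc4 at 315, 315 and 319 against 222, 206 and 202 (-0.59, SE 0.06). Psmc2 fell by 0.25 and Psmc6 rose by 0.34. Psmc1, among the lowest in both sko comparisons, was at -0.16 (SE 0.07, adjusted p = 0.0698).

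Psme4 had the largest increase, from 141, 151 and 146 CPM to 233, 247 and 263 (0.76, SE 0.07, adjusted p = 2.02e-07), and Psmf1 rose from 421, 397 and 422 to 547, 546 and 546 (0.40, SE 0.06, adjusted p = 3.12e-05). Psme3 fell (-0.44, SE 0.07), Psme2 was at -0.16 (SE 0.10, adjusted p = 0.212) and Psme1 at -0.85 (SE 0.41, adjusted p = 0.0949) with at most 0.881 CPM. Of the assembly factors Psmg1 (-0.75, SE 0.07) and Psmg3 (-0.52, SE 0.09) fell and Psmd9 rose (0.22, SE 0.07), the last not without cPDS replicate 2. Psmb10, at 1.13 CPM in GV-C, was called lower (-1.09, SE 0.39, adjusted p = 0.0281), and not so without GV-C replicate 2 or cPDS replicates 1 or 3. Psmc3ip fell by 1.16 (SE 0.10), with 21.2% of its exon bases shared with Mlx on the other strand.

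**Figure D4:**
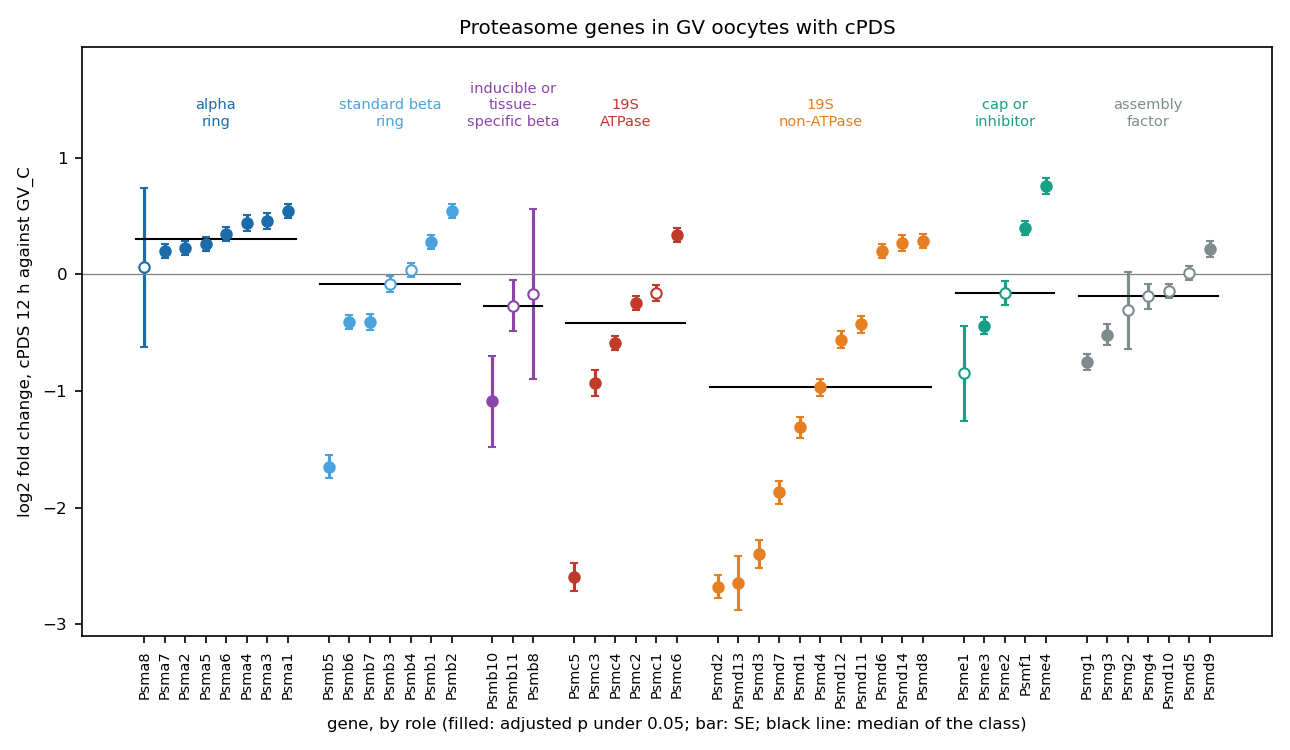
Log2 fold change (vertical axis) of 47 proteasome genes between cPDS 12 h and GV_C, sorted within each role, with SE bars. Filled points passed the adjusted p threshold and black lines are class medians: 0.31 for the alpha ring, -0.42 for the ATPases and -0.97 for the other 19S subunits.

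Partners of the proteasome moved in both directions with cPDS. Of 25 tested 9 rose and 12 fell, where 23.4% of all genes tested were higher and 27.4% lower. Nfe2l1 was at 43.6, 48.5 and 44.7 CPM in GV-C and 9.68, 7.95 and 8.44 with cPDS (-2.39, SE 0.10, adjusted p = 5.69e-11), and Adrm1, a ubiquitin receptor that docks on the Psmd1 protein, at 123, 95.9 and 132 against 32.7, 31.3 and 24.6 (-1.99, SE 0.12). Nsfl1c, a cofactor of the segregase p97, fell by 2.23 and Ubqln4 by 1.97. Usp14 (0.73, SE 0.07) and Zfand5 (0.91), a proteasome activator, rose. Of 8 ubiquitin and activating enzyme genes 3 rose, among them Ubb (0.42) and Uba6 (0.75), and 3 fell, among them Uba3 (-0.75), which activates NEDD8. Of 19 anaphase promoting complex genes 5 rose and 11 fell. The chain-elongating enzyme Ube2s was at 44.1, 31.4 and 41.6 CPM against 9.34, 8.87 and 7.82 (-2.18), and Cdc27 rose (0.58). Of 7 tested antigen presentation genes 1 rose and 2 fell.

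The granulosa and cumulus markers summed to 110.1 to 112 CPM in GV-C and 89.6 to 104 with cPDS, none at 0, and 2 of 9 tested rose and 3 fell. The immune markers summed to 14.2 to 15.3 against 12.7 to 13.9. The 6 endothelial and blood markers summed to 66.3 to 70.6 against 22.6 to 25.4, with Hbb-b1 and Hba-a1 at 0 in both and 1 of 3 tested lower. The oocyte markers summed to 20410 to 23970 against 26280 to 30330, and 6 of 11 rose and 3 fell. Their part in the result was not tested.

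Promoter sequences are shown for the 2 lowest and the 2 highest changes with cPDS among genes in the table, to show the DNA upstream of genes that changed in opposite directions. They come from RefSeq on GRCm38.p6, where 41 of the 49 genes matched. Each is the 250 bases before the start of transcription, 5′ to 3′ on the gene's strand, and capitals mark GGGCGG on either strand, the letters of a GC box that Sp1 family factors bind. Psmd2 is at chr16:20651402-20651651 (plus), Psmd13 at chr7:140882144-140882393 (plus), Psme4 at chr11:30771525-30771774 (plus) and Psma1 at chr7:114276117-114276366 (minus).
Psmd2: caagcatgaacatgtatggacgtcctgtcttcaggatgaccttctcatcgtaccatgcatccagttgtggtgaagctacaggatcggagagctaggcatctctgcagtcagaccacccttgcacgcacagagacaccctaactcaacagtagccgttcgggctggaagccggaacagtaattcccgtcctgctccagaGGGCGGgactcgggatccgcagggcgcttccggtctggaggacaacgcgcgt
Psmd13: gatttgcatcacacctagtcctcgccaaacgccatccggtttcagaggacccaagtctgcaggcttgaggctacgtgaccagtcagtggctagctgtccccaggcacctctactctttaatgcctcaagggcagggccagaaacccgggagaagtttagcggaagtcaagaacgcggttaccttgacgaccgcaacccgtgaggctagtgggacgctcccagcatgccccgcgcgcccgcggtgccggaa
Psme4: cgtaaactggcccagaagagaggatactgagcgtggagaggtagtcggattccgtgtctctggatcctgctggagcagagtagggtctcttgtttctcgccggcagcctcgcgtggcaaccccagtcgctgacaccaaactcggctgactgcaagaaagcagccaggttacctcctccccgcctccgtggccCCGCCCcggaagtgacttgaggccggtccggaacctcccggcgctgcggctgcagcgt
Psma1: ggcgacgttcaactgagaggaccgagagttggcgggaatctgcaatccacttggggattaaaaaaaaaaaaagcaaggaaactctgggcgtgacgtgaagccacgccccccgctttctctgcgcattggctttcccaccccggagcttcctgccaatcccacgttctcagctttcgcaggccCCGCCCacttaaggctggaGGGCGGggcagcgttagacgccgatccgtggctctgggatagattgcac
Psma1 holds the GC box 2 times, Psmd2 and Psme4 once each, and Psmd13 has no match.

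The GC box was upstream of 22 of the 40 subunit genes with a promoter (55%), where 32.7% of 32851 promoters of the same length hold it on either strand. Members are counted as genes, with a match in any of their promoters (44 promoters for 41 genes), and the background as single promoters. The shares here thus differ in unit, which can raise those of the members. By their cPDS result, 10 of 14 higher genes, 6 of 15 lower genes and 5 of 10 genes not called had it. CCAAT was in 35% of members and 33.8% of all promoters, TGANNNNGC (the core of the antioxidant response element) in 40% and 35.2%, and GCGC followed after any 2 bases by GCGC again (the core that nuclear respiratory factor 1 binds) in 15% and 4.98%. The pattern of 4 runs of GGG with loops of 1 to 7 bases, which can fold into a G-quadruplex and can overlap a GC box, was in 17.5% of members and 16.7% of all promoters. It was in 5 of 14 higher genes (Psma4, Psma7, Psmc6, Psmd14 and Psmd9), in 0 of 10 genes not called and in 1 of 15 lower ones, Psmd2. In Psmd2 it lies from -52 to -29 before the start. Psmb9, not tested with cPDS, is among the members with a promoter but in none of these classes. All motifs were searched on both strands. A match describes letters in DNA and no fold in RNA.

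In the Trim21 comparison few proteasome genes passed the test. Of 43 tested genes 1 was lower and none higher, where 11.5% of all genes were called (6.26% higher, 5.23% lower), and the median was -0.03, against -0.01 over all genes. The gene was Psma7, at 1795, 1935 and 1786 CPM in controls and 1330, 1559 and 1351 with Trim21 (-0.38, SE 0.09, adjusted p = 0.0211). All Trim21 libraries were lower, yet the call was lost without control replicate 1 or 3 or Trim21 replicate 1 or 3. At an unadjusted p under 0.05 there were 5 genes, and DESeq2 called 2. The others were Psmb4 (-0.30, SE 0.10, adjusted p = 0.0722), Psmb7 (-0.27, SE 0.10, adjusted p = 0.105), Psmd13 (1.12, SE 0.43, adjusted p = 0.127) and Psmg2 (1.36, SE 0.45, adjusted p = 0.0760). Psmb7 was called without control replicate 2. Psmd13 was at 2.37, 1.21 and 2.24 CPM against 4.17, 1.61 and 6.30, which overlap.

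Groups did not overlap for 3 genes on the higher and 5 on the lower side, against 15.2% and 14.9% of all genes tested. Psmb6 was at -0.04 (SE 0.09), Psmb5 at 0.40 (SE 0.23), Psmf1 at -0.08 (SE 0.14), Psme3 at -0.07 (SE 0.13) and Psme4 at -0.03 (SE 0.16). Psma8, Psmb8 and Psme1 did not pass the filter, and Psmb9 and Psmd14 had no row with identical exons in that table. The summed level was 11805 to 12061 CPM in controls and 10906 to 11530 with Trim21. Of the partners Nfe2l2 rose (1.04, SE 0.16, adjusted p = 0.00117) and none fell of 25, where 6.26% of all genes tested were higher and 5.23% lower. Uba2 (0.42) of 8 ubiquitin and activating enzyme genes and Ube2s (0.98) of 19 anaphase promoting complex genes rose. None of 5 antigen presentation genes was called. The immune markers summed to 29.1 to 46.0 CPM in controls and 7.99 to 12.9 with Trim21, with Ptprc at 0 in both. Of 3 tested H2-Aa was lower (26.6 to 41.96 CPM against 3.91 to 8.03), and it made up most of the sum in controls, while Laptm5 was at 1.52 to 2.18 against 1.79 to 2.95. The granulosa and cumulus markers summed to 47.1 to 49.6 against 68.3 to 77.6, with Amh and Foxl2 at 0 in both, and of 5 tested Cyp19a1 was higher (0.88). Their part in the result was not tested.

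**Figure D5:**
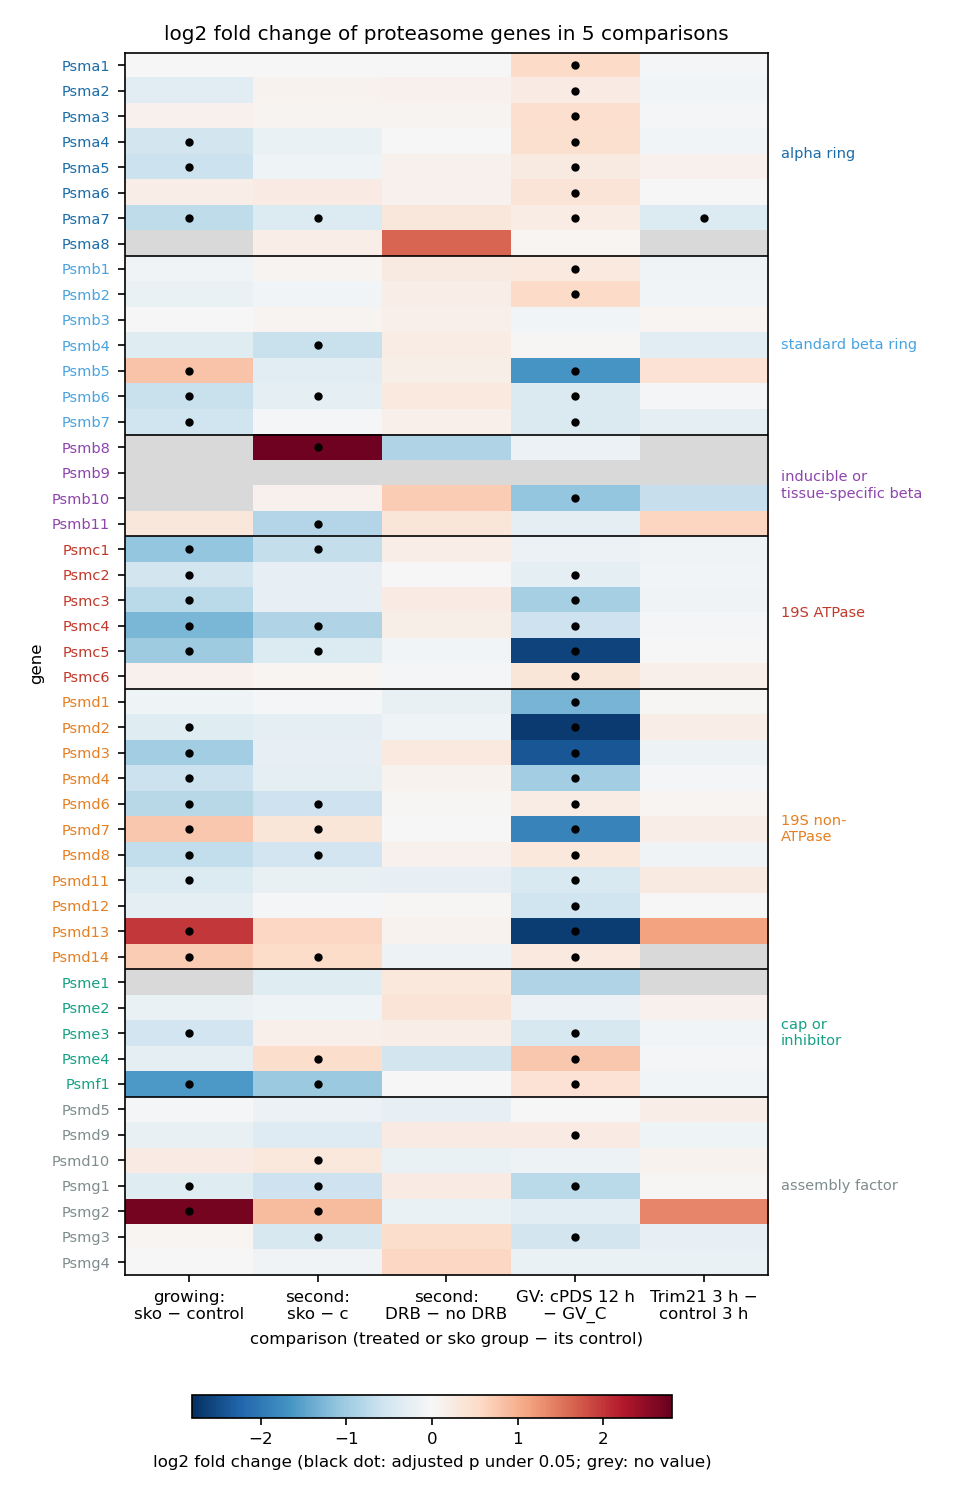
Log2 fold change of 48 proteasome genes (rows, by role) in 5 comparisons (columns), blue for lower and red for higher, with a dot where the adjusted p was under 0.05 and grey where there is no value. The sko columns share lower Psmc1, Psmc4, Psmc5 and Psmf1, the cPDS column has a higher alpha ring above a mostly lower 19S particle, and the DRB column has no dot.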

How the data were processed

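The authors deposited raw read counts per gene with exon positions and lengths, laid out as by featureCounts, per the file headers. The build mm9, featureCounts 2.0.1 and the aligners STAR 2.5.2b and HISAT2 2.1.0 stand in the submitters' processing notes. The aligner of each table, whether strand was used and how reads with several matches were counted are not given there, so genes with overlapping exons (12 of the 49 genes share exon bases with another feature) or near-identical copies are uncertain. One table held 20 libraries by symbol. In the other, with 6 libraries of the Trim experiment by Ensembl identifier, members were the rows with identical exons (47 of 49). A further table repeated the first (0 cells differ). 0 sample columns were unmapped. Peak data were not analysed here.

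Counts were tested in R 4.3.3 with edgeR 4.0.16 (filterByExpr with a minimum count of 10, TMM, quasi-likelihood test, Benjamini-Hochberg adjustment over all genes, threshold 0.05) within each experiment, the second with genotype and DRB as terms. The sko change was compared between experiments by an interaction term on 12 libraries. CPM use the TMM-scaled library size. Alternatives were RLE factors, library size alone, no filter, DESeq2 1.42.0, each library left out, a replicate block and, in the second experiment, all 8 libraries or each DRB stratum. The test was checked on simulated data with 200 changed genes. For the cPDS, growing, Trim, DRB, second sko and interaction fits it recovered 88%, 71%, 68%, 43%, 30% and 20% of 2-fold changes and 99%, 96%, 99%, 95%, 96% and 82% of 4-fold changes. In the data, every fit but that of DRB called far more genes than the simulation changed. The adjusted threshold depends on that number, so these shares need not hold for the data.

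In each comparison the text names the called members with the smallest p, up to 6 each way, and the catalytic and inducible subunits, Psma7, Psma8, the activators, Psmd14 and Psmf1, with others by role. Of each list of partner genes it names up to 2 called members each way by p, and single further ones chosen after their values were seen. The members and lists were chosen with earlier results of these data known. One gene of the ubiquitin list is not reported here.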

Additional observations from a re-analysis of the deposited data

Results flagged for a closer look

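In a test of the difference itself (edgeR, interaction of genotype and experiment, 12 libraries), the sko change of 8 proteasome genes differed between the second experiment and the growing oocytes. That is 8 of 47 tested, where 13.2% of all genes were called. The second minus the growing change on the log2 scale was -1.43 for Psmd13 (adjusted p = 0.00565), which rose in growing sko oocytes and was at 0.57 in the second experiment. It was -1.10 for Psmb5 (adjusted p = 0.0150), higher in growing sko oocytes and at -0.29 in the second experiment. It was -1.17 for Psmb11 (adjusted p = 0.0457), a gene under 7 CPM. The difference was 0.74 for Psme4 (adjusted p = 0.0162), 0.72 for Psmd3 (adjusted p = 0.0389), 0.59 for Psmc5 (adjusted p = 0.0179), 0.51 for Psmc3 (adjusted p = 0.0386) and 0.47 for Psmb7 (adjusted p = 0.0434). Psmc5 fell in both experiments (-0.39 in the second), Psmd3, Psmc3 and Psmb7 passed the test in growing oocytes alone and Psme4 and Psmb11 in the second experiment alone. None of the 8 calls held in all alternatives, and none was made without rhau-sko replicate 5.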

How the results depend on the processing

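The counts of called members in growing sko oocytes (24) and with cPDS (35) stayed within 21 to 26 and 33 to 37 in all alternatives run, those leaving out a library included. From 18 in the second sko comparison, the count became 7 with all 8 libraries and 9 within the libraries without DRB, and 9 to 19 with a library left out. For DRB, 0 became 2 without the low-count filter and 4 with DESeq2. For Trim21, 1 became 3 without the filter and 2 with DESeq2, and 0 to 3 with a library left out. For the difference of the sko change, 8 became 4 with library size alone, 18 with DESeq2, and 0 to 13 with a library left out. Groups of the second experiment hold 1 or 2 libraries, so a lone library is taken to vary like the others in the fit. Of 1207 values of named members under alternatives, 1091 stayed on the same side of the threshold, 98 lost a call and 18 gained one; 0 called values changed direction, and 49 uncalled ones changed sign. Deviations of same-numbered libraries of the cPDS and Trim groups correlated at -0.06 to -0.03 and -0.05 to 0.09, so the numbers were not taken to pair them. With the replicate block, 34 members were called for cPDS and 1 for Trim21. Fold changes of the least expressed members (Psmb8, Psmb10, Psmg2) rest on few counts.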
